A study of Homo sapiens
Mus musculus with 8 samples.

Results

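Mouse cells in which mitochondrially encoded transcripts made up at least 20% of all unique molecular identifiers (UMIs, molecular tags that count each captured RNA molecule once) were compared with mouse cells of the same library in which that share was under 10%. A cell entered the first set, called high-mitochondrial here, with at least 1500 UMIs, over 80% of them on mouse genes. It entered the second set, called low-mitochondrial, with at least 5000 UMIs and the same mouse share. Of 16280 mouse cells with at least 1500 UMIs, 968 (5.95%) were high-mitochondrial and 13399 were low-mitochondrial. Since the cells were chosen by their mitochondrial share and UMI total, those quantities are described below without a test. The tests concern the other transcripts, the non-mitochondrial mouse UMIs.

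The libraries came from a benchmark of single-cell RNA-seq methods in which 4 lymphocyte lines from a cell repository were mixed in equal parts of viable cells. EL4 is the mouse CD4 T cell line and IVA12 the mouse B cell line of the mixture, and the human lines Jurkat (CD4 T) and TALL-104 (CD8 T) supplied the other cells. All 4 lines were in every library, no drug or genetic change is named for any of them, and each line stands for 1 culture source only. The 7 libraries analysed here were made with 10x Genomics kits: 1 with 3′ v2 (replicate 2), 2 with 5′ v1 (replicates 1 and 2) and 4 with 3′ v3 (replicates 1 to 4).

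Mitochondrial transcripts are made and translated inside the mitochondrion, behind its membranes, whereas messenger RNAs from nuclear genes are translated in the cytoplasm. Messengers for cytosolic proteins are translated on free ribosomes, and those for secreted, lysosomal and cell surface proteins mostly on ribosomes docked to the endoplasmic reticulum (ER), where the new chain enters the membrane or the lumen. Some long noncoding RNAs, with Malat1 as the most abundant, stay in the nucleus. A high mitochondrial share is widely used as a sign of a broken or dying cell, and such cells are usually left out of an analysis. Nothing in the libraries labels a cell as damaged, so the cells are called here only by their mitochondrial share.

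The libraries held 24790710 to 251164949 UMIs in total. The high-mitochondrial cells were spread unevenly over them: 3′ v2 replicate 2 held 27 among 662 mouse cells (4.08%, exact 95% interval 2.70 to 5.88%), the 5′ v1 libraries 44 (1.78%) and 25 (2.10%), and the 3′ v3 libraries, in replicate order, 218 (8.10%), 18 (1.54%), 476 (8.65%) and 160 (6.17%). The 3′ v3 replicates 1 and 3 were made from 1 cell mixture, replicates 2 and 4 from another, and both 5′ v1 libraries from 1 further mixture, while the 3′ v2 library had its own. Kit and cell preparation therefore cannot be told apart, and the spread between libraries of 1 mixture may be technical. No barcode of a high-mitochondrial cell occurred in a second library (0 of 968). Barcodes with under 100 UMIs, which hold free RNA, had a mitochondrial share of 0.230 to 6.60% of their mouse UMIs and spent 29.5 to 44.2% of their non-mitochondrial mouse UMIs on cytosolic ribosomal proteins. The IVA12 cells of 3′ v2 replicate 2 stood apart for several genes, but none of the 63 IVA12 genes followed across settings changed its call or direction in the fit without that library.

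Compared with low-mitochondrial cells, high-mitochondrial cells held more mitochondrial UMIs per cell in each library with enough cells, and far fewer UMIs of other genes. The median high-mitochondrial cell had 3416 to 9356.5 UMIs depending on the library, against 25654 to 30888 in low-mitochondrial cells, and a median mitochondrial share of 26.4 to 39.6%, against 2.10 to 6.74%. In EL4 the mean mitochondrial UMIs per high-mitochondrial cell were 122% of those per low-mitochondrial cell (median of 5 libraries, range 111 to 138%), whereas the non-mitochondrial UMIs were 13.2% (9.87 to 17.3%). In IVA12 the same ratios were 152% (128 to 166%) and 15.4% (11.5 to 31.2%). In IVA12, 3′ v3 replicate 4 kept the most non-mitochondrial RNA. These values follow from how the cells were chosen.

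The 13 mitochondrially encoded messengers did not all stand at the same level. mt-Co1, which encodes a catalytic subunit of cytochrome c oxidase, was at 100% of the low-mitochondrial level per cell in EL4 (82.5 to 122%) and at 104% in IVA12 (73.8 to 139%). mt-Nd1, a subunit of complex I, was at 106% in EL4 (91.7 to 160%) and at 133% in IVA12 (97.5 to 214%). mt-Atp6, a subunit of the ATP synthase, was higher, at 135% in EL4 (120 to 166%) and 181% in IVA12 (147 to 212%), and mt-Nd2 was at 142% in EL4 (123 to 197%) and 161% in IVA12 (153 to 177%). Both mt-Co1 and mt-Nd1 were thus present in the high-mitochondrial cells at about the amount per cell of the low-mitochondrial cells or more, and the marker Malat1 is described below.

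Cells were assigned to a line by 7 genes: EL4 where Lgals1, S100a6 and Perp together had at least 5 times the UMIs of Epcam, Cd24a, Ctss and Ckap4, and IVA12 in the reverse case. Of the high-mitochondrial cells, 368 (38.0%) were EL4, 468 (48.3%) were IVA12 and 132 (13.6%) were neither. Of the low-mitochondrial cells, 8330 (62.2%), 4723 (35.2%) and 346 (2.58%) were. No test is given for this shift, because the rule genes themselves kept very different parts of their UMIs. Lgals1, a cytosolic lectin that leads the EL4 call, kept 7.36% of its UMIs per EL4 cell (median of 5 libraries), and the other EL4 genes S100a6 and Perp kept 31.7 and 26.0%. Per IVA12 cell, the cathepsin gene Ctss kept 79.9%, Ckap4 50.1%, the adhesion molecule Epcam 49.5% and Cd24a 12.7%. The cells were called by UMIs of these same genes, so cells that had lost them could not be counted. As 13.6% of high- but 2.58% of low-mitochondrial cells were neither, these percents may be too high.

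Lineage genes that the rule did not use were, in sum, far higher in the line they mark. Summed over 21 T cell genes, EL4 high-mitochondrial cells had 7187 to 12645 UMIs per 1000000 non-mitochondrial mouse UMIs (CPM), and IVA12 high-mitochondrial cells 106 to 314 CPM. Summed over 24 B cell genes, IVA12 high-mitochondrial cells had 1636 to 3315 CPM and EL4 high-mitochondrial cells 308 to 506 CPM, with a median of 223 CPM from the aspartic protease gene Napsa alone. In low-mitochondrial cells the T cell genes summed to 3295 to 3828 CPM in EL4 and 40.5 to 112 CPM in IVA12, and the B cell genes to 873 to 1779 CPM in IVA12 and 113 to 195 CPM in EL4. The median of each sum over libraries was higher in high- than in low-mitochondrial cells, also in the line that the genes do not mark, and the part of RNA from other cells in this was not tested. The labels were only partly borne out by defining genes: Cd4 was at a median of 0 CPM in high- and 0.0786 CPM in low-mitochondrial EL4 cells. Cd6, also a T cell gene, was at medians of 0 and 0.622 CPM in these EL4 cells, but at 29.1 and 11.0 CPM in IVA12. Cd2 was at medians of 23.3 CPM in low-mitochondrial EL4 and 18.1 CPM in low-mitochondrial IVA12 cells. In IVA12, Cd79a and Pax5 stood at medians of 0.196 and 0.331 CPM in low-mitochondrial cells, while the B cell genes Cd79b (299 CPM) and Ms4a1, which encodes CD20 (174 CPM), were present. Human genes took 0.0477 to 2.58% of the UMIs of the high-mitochondrial sums used in the tests.

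Summed per cell, groups of genes separated widely in how much of their RNA high-mitochondrial cells still held. In EL4, the group of nuclear and long noncoding RNAs kept 70.8% of the UMIs of a low-mitochondrial cell (median of 5 libraries, range 41.8 to 94.1%), MHC class I genes 65.7% (55.4 to 106%), lymphocyte surface proteins 61.5% (57.0 to 107%), lysosomal and granule proteins 54.4% (48.5 to 88.7%) and ER chaperones with the protein translocation machinery 45.0% (38.4 to 62.7%). At the other end, nuclear-encoded oxidative phosphorylation genes kept 10.6% (10.4 to 15.3%), actin cytoskeleton genes 6.38% (4.80 to 11.0%) and cytosolic ribosomal proteins 5.83% (4.51 to 9.61%). The ranges of the first 5 groups and the last 3 did not touch in EL4, but other groups lay between or across them. Clustered histone genes kept 11.8% (6.38 to 47.9%), replication and mitosis genes 17.9% (9.24 to 36.8%) and interferon-stimulated genes 21.1% (16.0 to 42.3%). In IVA12 the same groups were kept well above the rest of the RNA, with lysosomal proteins at 62.2% (33.7 to 109%), surface proteins at 58.7% (26.7 to 95.9%), MHC class I at 53.7% (36.8 to 107%), nuclear and long noncoding RNAs at 49.5% (27.9 to 72.1%) and ER genes at 43.4% (28.7 to 93.7%). Cytosolic ribosomal proteins kept 16.1% in IVA12 (9.47 to 28.4%), close to the 15.4% of all non-mitochondrial RNA. For each of these IVA12 groups but the nuclear RNAs the highest value was that of 3′ v3 replicate 4.

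**Figure D1:**
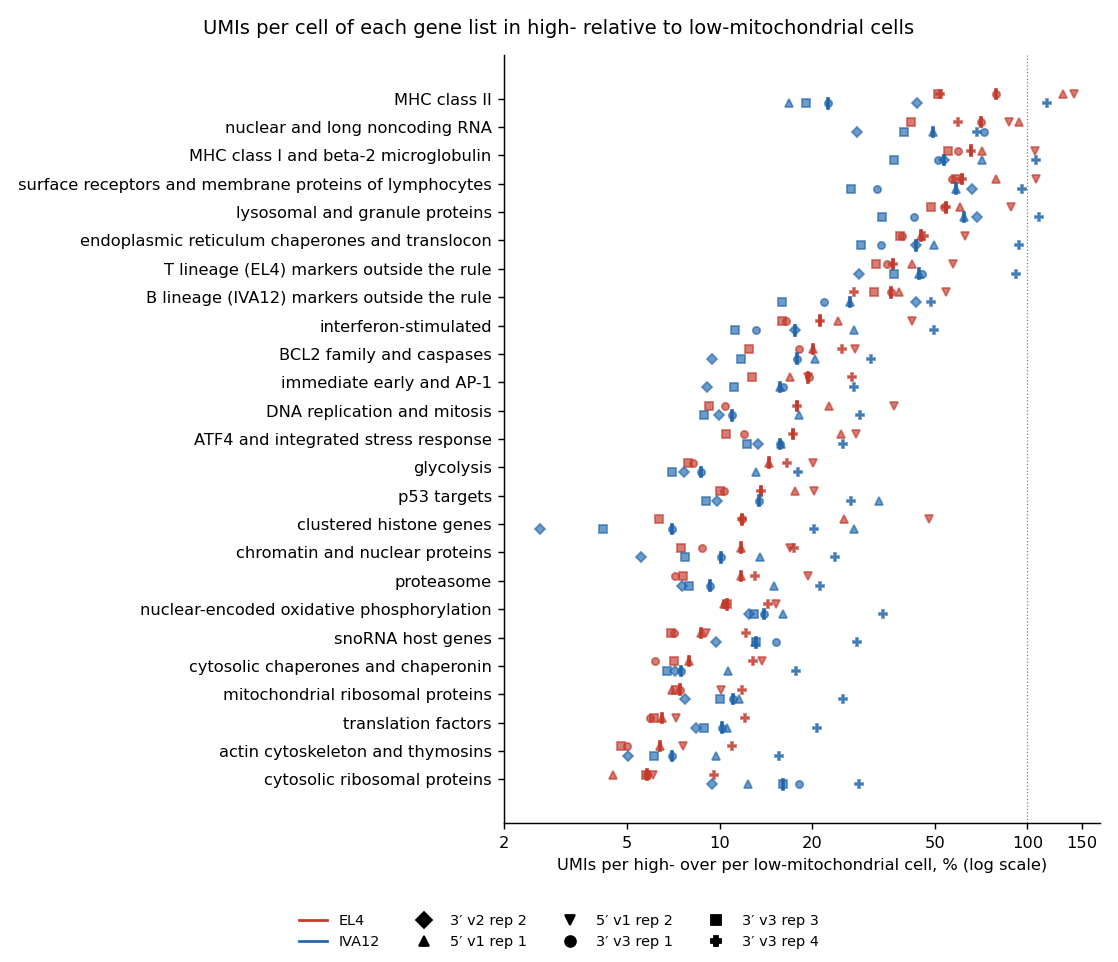
Mean UMIs of each gene group per high-mitochondrial cell as a percent of those per low-mitochondrial cell of the same library (log scale), with 1 symbol per library, red for EL4 and blue for IVA12, a bar at the median and a dotted line at 100%. Membrane and secretory groups lie between 26.7 and 109% in both lines, and cytosolic ribosomal proteins between 4.51 and 9.61% in EL4 and between 9.47 and 28.4% in IVA12.

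Which transcripts made up the remaining RNA was then tested in each line, on UMIs summed per library and state. All changes from here on are relative to the other non-mitochondrial mouse RNA of the same cells. "Higher" means kept better than most genes, not gained: the 3547 EL4 genes with a mean of at least 50 CPM kept a median of 16.8% of their UMIs per cell and the 2858 such IVA12 genes 13.1%. All high values lay above all low values in CPM for 913 of these EL4 and 367 of these IVA12 genes, and below for 351 and 317. Where single genes are said not to overlap, these counts are the background. In EL4 (359 high-mitochondrial cells in 5 libraries), 4868 of 10142 genes tested differed (48%). Of these genes, 2533 were higher (25% of all tested) and 2335 were lower (23%) in high-mitochondrial cells at an adjusted p under 0.05 (edgeR quasi-likelihood test with the library as block, Benjamini-Hochberg adjustment). The median log2 difference of all genes tested was 0.02. Scaled to total UMIs instead, 3897 were higher and 1016 lower, which moves the higher share of the calls from 52.0 to 79.3% and the median of all genes to 0.53. In IVA12 (454 cells in 5 libraries), 3615 of 8198 genes differed (44.1%), of which 1838 were higher (22.4%) and 1777 lower (21.7%), with a median over all genes of -0.12.

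Nuclear RNAs were among the transcripts that rose in EL4. Malat1, the nuclear speckle RNA, stood at 14532, 17228 and 13559 CPM in the high-mitochondrial EL4 cells of 3′ v3 replicates 1, 3 and 4 and at 9312 and 6219 CPM in those of 5′ v1 replicates 1 and 2, against 2131, 3954, 4383, 1435 and 1306 CPM in the low-mitochondrial cells of the same libraries. The 2 sets did not overlap, and Malat1 was 1.67 ± 0.35 (SE) higher on the log2 scale (edgeR adjusted p = 9.46e-06). Per cell, 74.5% of its UMIs were kept (43.0 to 85.7%). Neat1, the scaffold RNA of paraspeckles, rose by 2.13 ± 0.24 (adjusted p = 1.46e-17), from 161 ± 46.2 to 1247 ± 746 CPM (mean ± SD, n = 5). Of 10 tested members of the nuclear and long noncoding group, 7 were higher, against 25% of all genes. The group's median log2 difference was 1.40, against 0.02 over all genes.

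ER chaperone and translocation genes were mostly higher in EL4. Of 36 tested, 30 were higher and 3 lower, against 25% and 23% of all genes (median log2 difference 1.65, against 0.02), and their summed share of non-mitochondrial UMIs was 1.99 to 3.25% in high- against 0.626 to 0.836% in low-mitochondrial EL4 cells. Hspa5, which encodes the ER chaperone BiP, was at 2139, 2794, 1822, 1229 and 1324 CPM in the high-mitochondrial cells, in the library order given for Malat1, and at 338, 427, 425, 112 and 94.5 CPM in the low-mitochondrial cells. Every high value lay above every low value, and the difference was 2.31 ± 0.27 (adjusted p = 2.63e-16). Hsp90b1 (the ER chaperone GRP94), Calr (calreticulin) and Canx (calnexin), also chaperones of newly made glycoproteins or secreted proteins, rose by 2.19, 2.14 and 2.04, with 70.5, 71.6 and 72.5% of their UMIs kept per cell. Among the 12 largest rises in EL4 were 3 further genes of the ER quality control and glycosylation machinery: Os9 (2.55 ± 0.20), a lectin that hands misfolded glycoproteins to degradation, Prkcsh (2.45 ± 0.21), the beta subunit of glucosidase II, and Rpn1 (2.36 ± 0.24), a subunit of the oligosaccharyltransferase. Os9 kept 96.8% of its UMIs per cell, with 156 to 279 CPM in high-mitochondrial against 17.1 to 32.1 CPM in low-mitochondrial cells.

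The 12 largest EL4 rises also held 3 enzymes of cholesterol synthesis, which sit in the ER membrane. Msmo1, Cyp51 and Dhcr7 rose by 2.44 ± 0.21, 2.42 ± 0.21 and 2.38 ± 0.21 (adjusted p = 2.72e-27, 2.72e-27 and 4.74e-26). Msmo1 had 381, 426, 156, 140 and 97.2 CPM in high- and 48.9, 50.8, 20, 17.2 and 15.4 CPM in low-mitochondrial cells, and kept 106% of its UMIs per cell. The other genes of the pathway were not counted.

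Surface, MHC and lysosomal genes rose with the ER genes. H2-K1, a classical MHC class I heavy chain, was at 5353, 6117, 3413, 5542 and 5879 CPM in high- and 870, 909, 723, 582 and 524 CPM in low-mitochondrial EL4 cells, a rise of 2.24 ± 0.31 (adjusted p = 8.09e-12) with no overlap. Its partner B2m, a secreted protein that binds the heavy chain in the ER, rose by 1.50 ± 0.31, and H2-D1 by 1.74 ± 0.29. Of 11 MHC class I genes tested, 10 were higher and 1, H2-T22, was lower (-1.20), a call lost at a mitochondrial share of at least 40% and with thinned cells (adjusted p = 0.0736 and 0.120). Ptprc, which encodes the surface phosphatase CD45, rose by 2.07 ± 0.25, from 188 to 282 CPM in low- to 1166 to 1822 CPM in high-mitochondrial cells, and 27 of 29 lymphocyte surface genes were higher. Psap (prosaposin, 2.22), Man2b1 (lysosomal alpha-mannosidase, 2.42), Ctsl (cathepsin L, 2.41) and Grn (progranulin, 2.38) all rose, and 14 of 18 lysosomal and granule genes were higher. The secreted proteins Fbln1 (fibulin 1) and Lgals3bp rose by 2.38 and 2.33. The medians of these 3 groups were 1.91, 1.76 and 1.67 on the log2 scale, against 0.02 over all genes. Over all EL4 genes 25% were higher and 23% lower.

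T cell genes of EL4 mostly encode surface proteins, and 11 of the 17 tested were higher (median log2 difference 1.25), against 25% of all genes. IVA12 hardly expresses them: 7 of the 21 passed the filter on low counts there, and 0 of these had a mean of at least 50 CPM. All 7 were higher (median 1.62), against 22.4% of all genes. Genes this low can pass the filter through the sums in which they are higher, so the count is given as a description. The T cell surface glycoprotein Thy1 rose by 1.54 ± 0.28, and Cd3g and Cd3d, chains of the T cell receptor complex, rose by 1.74 ± 0.25 and 1.32 ± 0.28. The transcription factor gene Tcf7 went the other way: 305, 238, 379, 223 and 219 CPM in high- against 511, 427, 696, 361 and 375 CPM in low-mitochondrial cells, a fall in each library of -1.37 ± 0.24 (adjusted p = 1.05e-07). Tcf7 encodes a nuclear protein, whereas Thy1 and the CD3 chains are membrane proteins. Bcl11b and Gata3, also transcription factor genes of this list and named after their values were seen, did not fall in CPM. In EL4 cells of the 4 libraries with both lines, Bcl11b was at medians of 276 CPM in high- and 95.9 CPM in low-mitochondrial cells. Gata3 was at 125 and 104 CPM. Whether the site of translation has a part in this was not tested.

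The genes that fell furthest in EL4 included several for cytosolic proteins. The share of such genes among all genes tested was not counted. Fth1, the heavy chain of the iron store ferritin, was at 4802, 3861, 3193, 3895 and 2684 CPM in high- and 9897, 8791, 8696, 26188 and 30527 CPM in low-mitochondrial cells. The sets did not overlap, the difference was -2.57 ± 0.41 (adjusted p = 4.63e-09), and 4.34% of the UMIs per cell were kept. Ftl1, the light chain, fell by 2.30. The actin-sequestering thymosin Tmsb10 (-2.53 ± 0.31), the RNA-binding protein Ybx1 (-2.36 ± 0.32), the translationally controlled Tpt1 (-2.32 ± 0.34), the sorting nexin Snx3 (-2.40 ± 0.25), the lipid-transfer protein Stard10 (-2.38 ± 0.32), the selenoprotein Sepw1 (-2.29 ± 0.26) and the co-chaperone Bag1 (-2.22 ± 0.25) each kept 3.10 to 3.92% per cell. No high value of these genes reached a low value.

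Ribosomal protein genes fell almost as a whole in EL4: 81 of 83 were lower and 1 was higher, against 23% and 25% of all genes. Their median log2 difference was -1.71, against 0.02 over all genes. Their share of non-mitochondrial UMIs was 12.4 to 19.2% in high- and 29.7 to 36.4% in low-mitochondrial EL4 cells. Rplp0, Rpl32 and Rps4x were among the 12 largest falls (-2.40, -2.20 and -2.19). Rps20, a protein of the small subunit, fell by 2.12 (SE 0.36, adjusted p = 4.74e-08), with 3157, 3429.9, 3778, 2918 and 3110 CPM in high- against 7213, 7689, 9166, 11444 and 11566 CPM in low-mitochondrial cells. The exception, Rpl39l, is a low-abundance paralog of Rpl39 (6.88 against 2.26 CPM), whose reads can be split with its near copy. Ribosomal protein genes have many processed pseudogenes, so the level of a single member is uncertain.

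Other cytosolic machines fell with them in EL4. Of 47 proteasome genes 40 were lower (median -0.91), of 19 cytosolic chaperones and chaperonin subunits 17 (median -1.13), of 22 actin cytoskeleton genes 20 (median -1.35) and of 61 translation factors 40 (median -0.88). Eef1a1, the elongation factor that delivers aminoacyl-tRNA to the ribosome, fell by 1.96 (SE 0.38) and kept 4.40% per cell. Hsp90ab1 and Hspa8, cytosolic relatives of Hsp90b1 and Hspa5, fell by 1.45 and 1.23, while those ER chaperones rose. The Hspa8 call was lost with thinned cells (adjusted p = 0.0613). Mitochondrial ribosomal proteins, made in the cytosol and imported, were lower in 67 of 77 genes (median -0.99), and nuclear-encoded oxidative phosphorylation genes in 55 of 79 (median -0.90). Over all genes 23% were lower. Scaled to total UMIs, which lowers the number of genes called lower to 1016, the proteasome count was 17, the chaperone count 14, the actin count 15, the translation factor count 26, the mitochondrial ribosomal count 31 and the oxidative phosphorylation count 33.

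Within several groups, a few members moved against the rest. In the ER group the falls were Ost4 (-1.94 ± 0.24), Sec61b (-1.88 ± 0.26) and Sec61g (-1.25 ± 0.25). These encode a very short subunit of the oligosaccharyltransferase and the small, single-span beta and gamma subunits of the Sec61 channel. The Sec61g call was lost without the replicate block and with thinned cells (adjusted p = 0.0848 and 0.125). Sec61b had 318, 407, 365, 168 and 206 CPM in high- and 701, 794, 713, 749 and 700 CPM in low-mitochondrial EL4 cells, and kept 4.98% per cell. In the glycolysis group, 10 of 19 genes were lower and 5 higher, against 23% and 25% of all genes, and with total UMIs 7 were lower and 7 higher. Gapdh, the glyceraldehyde-3-phosphate dehydrogenase, was among the lower (-1.60 ± 0.28). The 5 higher members were the plasma membrane transporters of glucose Slc2a1 (2.07) and Slc2a3 (1.64), those of lactate Slc16a1 (1.79) and Slc16a3 (2.06), and the hexokinase Hk2 (0.73). Slc2a3 had 1217, 912, 1744, 1550 and 1786 CPM in high- against 248, 184, 490, 272 and 341 CPM in low-mitochondrial cells, and Slc16a3 had no UMI in the high-mitochondrial cells of 5′ v1 replicate 1. Among translation factors, 2 rose: Eif2ak3, the PERK kinase of the ER membrane, by 1.62 ± 0.22, and Eif4g1, a large cytosolic scaffold of initiation, by 0.57 ± 0.21. The Eif2ak3 call was lost at a mitochondrial share of at least 40% (adjusted p = 0.136). The members of this paragraph, apart from Gapdh and Slc2a3, were named after their values were seen.

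Of 79 oxidative phosphorylation genes tested in EL4, 8 were higher, fewer than the 25% of all genes. The complex I subunit Ndufa13 had 2547, 3032, 790, 991 and 826 CPM in high- and 400, 432, 274, 226 and 170 CPM in low-mitochondrial EL4 cells (1.68 ± 0.27), and it kept 69.2% of its UMIs per cell. Ndufc2 (complex I) and Cox6a1 (cytochrome c oxidase) rose by 1.23 and 1.12 and kept 45.3 and 46.3%. The same 3 genes were higher in IVA12, by 1.40, 1.02 and 1.49, with the Ndufc2 call lost there at a share of at least 40% (adjusted p = 0.0565). They were singled out after the values were seen.

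**Figure D2:**
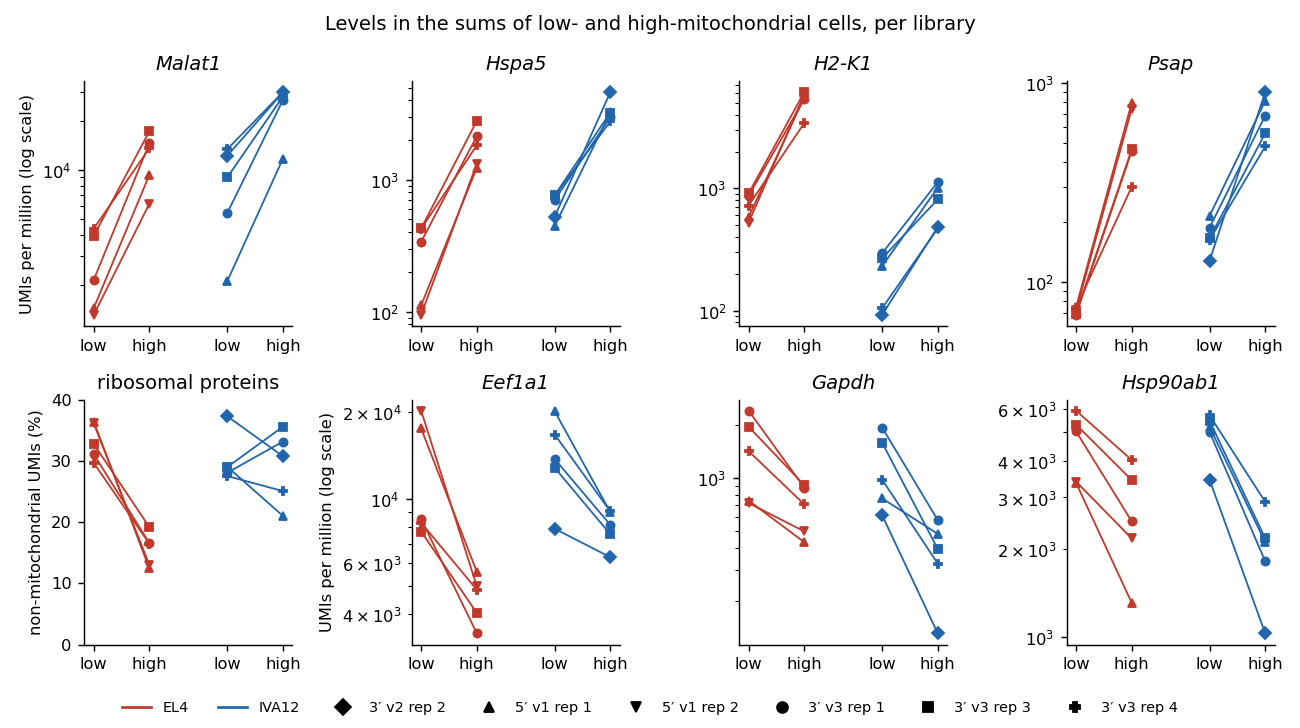
CPM of non-mitochondrial mouse UMIs (log scale) in low- and high-mitochondrial cells of each library, EL4 and IVA12 apart, for genes named in the text, and the percent of these UMIs from ribosomal protein genes (linear scale), with lines joining the states of 1 library. Malat1, Hspa5, H2-K1 and Psap rise in every library of both lines, Eef1a1, Gapdh and Hsp90ab1 fall in every library, and the ribosomal share falls in each EL4 library but rises in 2 of 5 IVA12 libraries.

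ER, MHC, surface and lysosomal messengers were mostly higher in IVA12 too. Over all IVA12 genes 22.4% were higher and 21.7% lower. Of 36 ER genes 32 were higher and 2 lower (median 1.27, against -0.12 over all genes), 12 of 13 MHC class I genes were higher (median 1.93), 24 of 26 surface genes (median 1.43) and 15 of 15 tested lysosomal genes (median 1.79). Hspa5 was at 4610, 2984, 3232, 2766 and 3241 CPM in the high-mitochondrial cells of 3′ v2 replicate 2, 3′ v3 replicates 1, 3 and 4 and 5′ v1 replicate 1, against 525, 702, 761, 756 and 446 CPM in the low-mitochondrial cells. The difference was 2.26 ± 0.30 (adjusted p = 2.46e-12), the states did not overlap, and 101% of the UMIs per cell were kept. The other large rises included the disulfide isomerases Pdia4 (2.25 ± 0.23) and Pdia6 (2.21 ± 0.27), Os9 (2.23 ± 0.20), and 3 genes of the peptide loading route of MHC class I: Tapbp (tapasin, 2.22 ± 0.19), Erap1 (the ER aminopeptidase, 2.20 ± 0.19) and Tap1 (the peptide transporter, 2.20 ± 0.21). H2-K1 had 483, 1126, 811, 470 and 1010 CPM in high- and 92.2, 294, 268, 105 and 231 CPM in low-mitochondrial IVA12 cells (1.92 ± 0.24).

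Among the other large rises of IVA12 were lysosomal enzymes. Man2b1 (2.30 ± 0.21) and the aspartic protease gene Ctsd, for cathepsin D (2.16 ± 0.22), rose in each of the 5 libraries without overlap, as did Cept1, an ER enzyme of phospholipid synthesis (2.29 ± 0.22). Gm364, a gene known by a model number only, rose most (2.70 ± 0.20), with 505 CPM in the high- against 18.3 CPM in the low-mitochondrial cells of 3′ v2 replicate 2 and 166 to 384 against 31.6 to 69.8 CPM in the others. Napsa rose by 2.29 ± 0.20, with overlap. B cell genes that encode surface proteins rose too: Cd79b, a chain of the B cell receptor, by 1.35 ± 0.23 and Ms4a1 by 1.55 ± 0.21, and of 9 tested B cell genes 7 were higher and 2 lower, against 22.4% and 21.7% of all genes. In EL4, 5 of 10 were higher and 1 lower, against 25% and 23%. Only 2 of these 10 had a mean of at least 50 CPM in EL4, so that count is a description. Malat1 rose by 1.63 ± 0.39 (adjusted p = 0.00018), with 29745, 26654, 28009, 29844 and 11699 CPM in high- and 12194, 5456, 9001, 13378 and 2093 CPM in low-mitochondrial IVA12 cells. It was higher in each library but overlapped between libraries, and with a mitochondrial share of at least 40% the call was lost (log2 1.02, adjusted p = 0.794). All 10 tested members of the nuclear and long noncoding group were higher in IVA12, against 22.4% of all genes. Without the replicate block 6 of 10 were called higher, and at a mitochondrial share of at least 40% 5 of 11 were.

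No ribosomal protein was among the 12 largest falls in IVA12. How many of all genes tested encode cytosolic or nuclear proteins was not counted. Ucp2, a carrier of the inner mitochondrial membrane, fell by 1.91 (SE 0.24), from 297, 423, 370, 361 and 946 CPM in low- to 65.9, 104, 113, 114 and 196 CPM in high-mitochondrial cells. Gapdh fell by 1.68 (SE 0.28), Ybx1 by 1.67 (SE 0.30), the histone chaperone Anp32b by 1.70 (SE 0.27) and prothymosin alpha (Ptma), a small nuclear protein, by 1.59 (SE 0.33). The remaining falls were the replication-dependent histone gene Hist1h2ap (-1.92) and the actin monomer-binding Pfn1 (-1.66), both with overlap and the first not called without the replicate block (adjusted p = 0.251), Eef1e1 (-1.76), Dph3 (-1.72), Txnl4a (-1.61), the RNA-binding Pcbp2 (-1.57) and Zfp706 (-1.51). Over all genes 21.7% were lower (median -0.12). Of 19 cytosolic chaperones 15 were lower (median -0.92), of 47 proteasome genes 30 (median -0.66), of 60 translation factors 39 (median -0.75) and of 21 actin cytoskeleton genes 14 (median -0.67). The same small ER subunits fell, Ost4 by 0.89 (SE 0.24) and Sec61b by 0.82 (SE 0.28), and the same transporters rose: Slc16a1 (1.94), Slc16a3 (1.89), Slc2a1 (1.43) and Slc2a3 (1.05). Ost4 and Sec61b were no longer called with each cell thinned to 500 UMIs (log2 -0.18 and -0.35, adjusted p = 0.623 and 0.278). Ost4 was also lost at a mitochondrial share of at least 40% (-0.23, adjusted p = 0.761), and Sec61b without the replicate block, with high-mitochondrial cells from 5000 UMIs and with line calls from 5 UMIs (adjusted p = 0.0590, 0.0529 and 0.0666). Slc2a1 had no UMI in the 3′ v2 high-mitochondrial cells.

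Few ribosomal protein genes were called in IVA12. Of 83 tested, 7 were lower and 1 was higher (Rpl18, 0.80 ± 0.34, adjusted p = 0.0408), against 21.7% and 22.4% of all genes, and the median log2 difference was -0.28, against -0.12 over all genes. Their share of non-mitochondrial UMIs was 30.8, 33.1, 35.6, 25.1 and 21.0% in the high- and 37.3, 28.0, 29.0, 27.5 and 29.0% in the low-mitochondrial cells of the libraries in the order given for Hspa5, higher in 2 of 5 libraries. Rplp1, a stalk protein of the large subunit, was at 4478, 10446, 8928, 8867 and 6362 CPM in high- and 7111, 10930, 9150, 13107 and 14922 CPM in low-mitochondrial cells, with overlap (-0.65 ± 0.36, adjusted p = 0.133). It was called with DESeq2 (-0.64, adjusted p = 0.0227) and with total UMIs (-0.50, adjusted p = 0.00618). The direction of the group's median depended on the setting: it was 0.05 in the 3′ v3 libraries alone, where 16 genes were higher and 9 lower. DESeq2 called 21 lower and 2 higher, total UMIs 18 and 10, and a mitochondrial share of at least 40% gave 19 and 20. The Rpl18 call was lost in 8 of the 17 other settings, among them without any 1 of the 3′ v3 libraries (adjusted p = 0.179, 0.186 and 0.106).

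Most calls went the same way in both lines. Of 7774 genes tested in both, 1367 were higher in both (72.6% of the 1884 higher in EL4 and 81.1% of the 1685 higher in IVA12) and 1202 were lower in both (55.0% of the 2186 lower in EL4 and 69.3% of the 1734 lower in IVA12). Opposite calls were made for 30 genes. The lines were cells of the same libraries, so these counts are not independent of library effects, and a difference in the number of calls is no difference in effect.

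**Figure D3:**
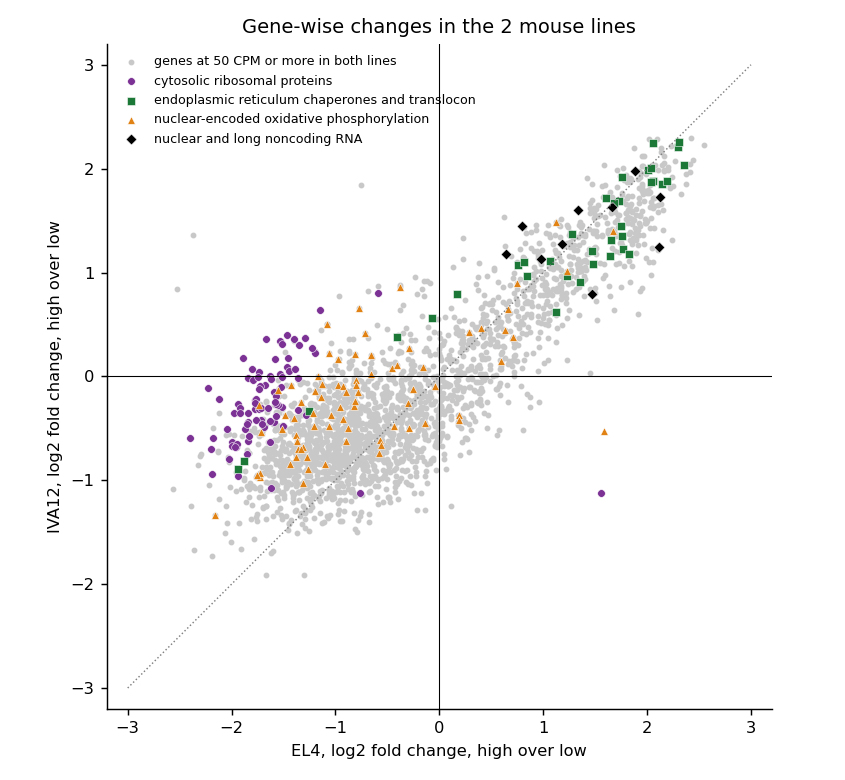
Log2 difference between high- and low-mitochondrial cells of each gene with a mean of at least 50 CPM in both lines (grey) and of the members of 4 gene groups (coloured), EL4 on the x axis and IVA12 on the y axis. ER genes and nuclear RNAs lie mostly above 0 on both axes, and ribosomal proteins lie far below 0 in EL4 (median -1.71) but near 0 in IVA12 (median -0.28).

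The difference between the lines was tested directly in the 4 libraries with both lines. Of 11816 genes, 460 (3.89%) differed at an adjusted p under 0.05 (edgeR quasi-likelihood test of the state-by-line term), 408 of them lower and 52 higher in EL4 relative to IVA12. This split turned with the scaling: with total UMIs 149 were lower and 1287 higher, and the median over all genes went from -0.14 to 0.54. Ribosomal proteins took a large part: 70 of 83 fell further in EL4 and 1 fell less, and their median difference was -1.62, against -0.14 over all genes. Relative to all genes this median was -1.39 to -1.65 in the 16 other settings, but the number of ribosomal protein genes called was not stable. It was 2 without 3′ v3 replicate 1 and 40 without replicate 4, 5 with libraries of 1 cell mixture summed, and 62 with DESeq2. Without 3′ v3 replicate 3, without the replicate block or with thinned cells, edgeR called 0 of them lower, with 76, 73 and 56 at an unadjusted p under 0.05. DESeq2 was run with all libraries only. Of 81 oxidative phosphorylation genes, 21 fell further in EL4, a count that was as unstable. It was 14 with DESeq2, 6 with total UMIs (8 in the other direction), 7 at a mitochondrial share of at least 40% (7 in the other direction), and 1 each without 3′ v3 replicate 1 and with sums per mixture. It was 0 without 3′ v3 replicate 3, without the replicate block or with thinned cells, with 24, 13 and 6 at an unadjusted p under 0.05 in edgeR.

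The largest single differences between the lines were in genes that 1 line expressed and the other hardly did. Stard10 fell by 2.38 in EL4 and rose by 1.36 in IVA12 (difference -3.62 ± 0.43, adjusted p = 1.35e-13), but its level in low-mitochondrial cells was 2680 to 3598 CPM in EL4 and 9.57 to 34.9 CPM in IVA12. Tmsb10 behaved alike (difference -3.27 ± 0.41), with 1127 to 3070 CPM in low-mitochondrial EL4 and 29.6 to 66.7 CPM in low-mitochondrial IVA12 cells. Gm4208, Nrgn, Tnnt1 and S100a4 (differences of -4.01, -3.48, -3.0 and -2.94) were also EL4 genes, with medians of 2.06 to 8.65 CPM in low-mitochondrial IVA12 cells against 150 to 740 CPM in low-mitochondrial EL4 cells. In the other direction, Ovol3 (2.27), Sfn (2.26), Nacc2 (2.00), Idh2 (1.87) and Cdkn2a (1.54) were IVA12 genes with medians of 2.80 to 8.34 CPM in low-mitochondrial EL4 cells. These 5 calls were not stable: of 16 other settings, Idh2 lost its call in 12, Cdkn2a in 7 and each of the others in 5, and without 3′ v3 replicate 3 none of the 5 was called (edgeR adjusted p = 0.0973 for Nacc2 to 0.967 for Ovol3). Tnnt1 and S100a4 lost theirs too without that library (adjusted p = 0.286 and 0.491). With expected free RNA removed, all 12 named line differences kept their call and direction. The amount removed was estimated from the human UMIs of each sum. In EL4 cells of 3′ v3 replicate 4 it was 24.9% in low- but 4.28% in high-mitochondrial cells. As doublets were not removed, this is a rough check. The part of RNA from cells of the other line in these line differences was not itself tested. Ly6a, a surface antigen of T cells, was an EL4 gene that rose in EL4 (median 112 to 570 CPM) and was at medians of 5.00 CPM in low- and 4.22 CPM in high-mitochondrial IVA12 cells. Like Tnnt1 and S100a4, it was too low in IVA12 to be tested there and passed the filter on low counts through EL4, and its call between the lines was lost in 9 of 16 other settings.

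The kits differed in the size of some changes, a difference that cannot be told apart from the cell mixtures. In EL4, 370 of 11250 genes (3.29%) differed between the 5′ v1 libraries (2) and the 3′ v3 libraries (3), 337 of them lower and 33 higher in 5′ v1, against a median over all genes of -0.44. Ribosomal proteins accounted for 75 of the genes lower in 5′ v1, and for 36 without 3′ v3 replicate 3, 38 without 5′ v1 replicate 1 and 54 without 5′ v1 replicate 2. In each EL4 library the median ribosomal protein gene nevertheless fell, by -0.77 to -0.91 in 3′ v3 and -1.40 to -1.53 in 5′ v1 when scaled to total UMIs. In IVA12, 15 of 12276 genes (0.122%) differed (79 with DESeq2). The 5′ v1 arm there was 1 library, assumed to vary like the 3′ v3 libraries, so this count has no check on replicates of that kit. These counts ranged from 96 to 505 in EL4 and from 3 to 88 in IVA12 when 1 library was left out.

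At equal depth the diversity of the remaining RNA was tested with each cell thinned to 500 non-mitochondrial UMIs. High-mitochondrial EL4 cells then had a median of 409.4 ± 14.9 genes and low-mitochondrial EL4 cells 339.8 ± 23.3 (mean ± SD of library medians, n = 5). The difference of 69.6 ± 32.1 genes was positive in 5 of 5 libraries (exact sign-flip permutation test, two-sided, p = 0.0625, the smallest value 5 libraries allow). In IVA12 the counts were 351.9 ± 21.9 and 354.4 ± 17.7 genes, a difference of -2.5 ± 18.6 (exact p = 0.875). The ribosomal protein share of the UMIs moved with it in EL4 (medians of 32.8% in low- and 16.5% in high-mitochondrial cells), and its part in the difference was not tested. Whether the lines differ in this was not tested.

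Composition was also followed across bins of mitochondrial share, from all mouse cells with at least 1500 UMIs, as a description with no test because the share defines the bins. In EL4, ribosomal proteins took a median over libraries of 33.1% of non-mitochondrial UMIs in cells with under 5% mitochondrial UMIs, 25.4% at 10 to 20%, 17.3% at 20 to 30% and 16.0% at 40 to 60%. ER genes went from 0.788% to 1.23, 2.24 and 3.61% in the same bins. In IVA12, ER genes took 1.32, 2.00, 3.26 and 3.67%. For IVA12 ribosomal proteins the medians were 28.7, 29.6, 31.2 and 34.5%, but each bin held other libraries and the libraries went apart. From under 5% to the highest bin that each library filled, the share rose from 27.6 to 33.7% in 3′ v3 replicate 1 and from 28.7 to 35.3% in replicate 3, the libraries of the highest bin, and fell from 27.9 to 24.5% in 3′ v3 replicate 4 and from 37.3 to 29.7% in 3′ v2 replicate 2. The libraries with no bin above 20% changed less: 28.7 to 29.3% and 28.7 to 26.9% in 5′ v1 replicates 1 and 2, and 28.1 to 27.8% in 3′ v3 replicate 2. Malat1 did not climb throughout. In each library that filled the highest bin it was lower there than at 30 to 40%. In EL4 it went from 15807 to 12910 CPM in 3′ v3 replicate 1, from 18301 to 9811 CPM in replicate 3 and from 17846 to 10216 CPM in replicate 4. In IVA12 it went from 29164 to 19720 CPM in replicate 1 and from 24830 to 13076 CPM in replicate 3. The fall started earlier in some libraries. In IVA12 replicate 3, Malat1 was highest at 10 to 20% (35371 CPM), below the limit for high-mitochondrial cells, and stood at 31385 CPM at 20 to 30%. From 20 to 30% to 30 to 40% it went from 30241 to 28035 CPM in IVA12 replicate 4 and from 16388 to 15807 CPM in EL4 replicate 1. The intermediate cells between the chosen sets had intermediate ER shares in both lines. The highest bin rests on 103 EL4 and 52 IVA12 cells from 3 and 2 libraries.

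**Figure D4:**
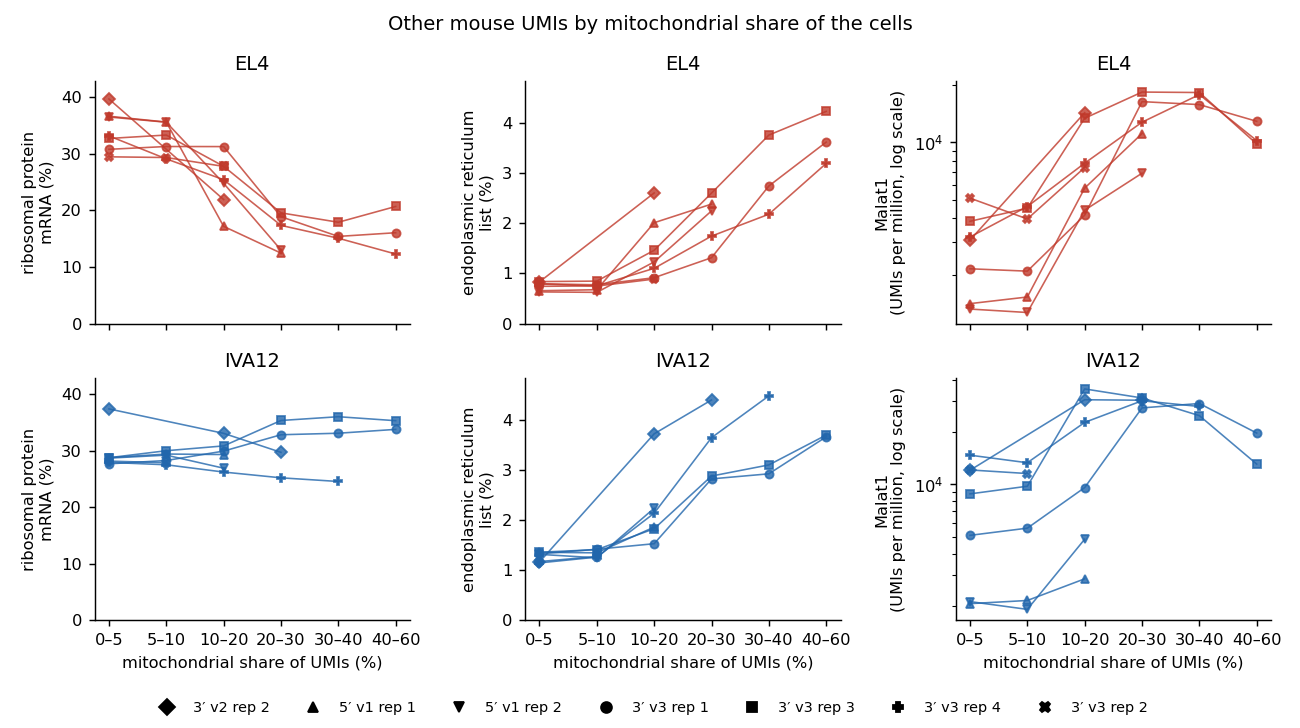
Share of non-mitochondrial UMIs on ribosomal proteins and on ER genes, and Malat1 CPM, by mitochondrial share of UMIs (bins in percent) in EL4 and IVA12, with 1 symbol and line per library and bins of at least 10 cells. ER genes climb in both lines, to medians of 3.61% and 3.67%, Malat1 climbs and is lower again in the highest bin, while ribosomal proteins drop from a median of 33.1 to 16.0% in EL4 and, in IVA12, rise in 3′ v3 replicates 1 and 3 and fall in 3′ v3 replicate 4 and 3′ v2 replicate 2.

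Malat1 was compared just inside and outside each threshold, as a description. It stood at 27263 CPM in the 89 cells with a mitochondrial share of 18 to 20% and at 28769 CPM in the 72 cells with 20 to 22%, and at 3676 CPM in the 23 cells with 1300 UMIs up to the limit of 1500 and 3756 CPM in the 16 cells with 1500 to 1700 UMIs. At the mouse share it stood at 15276 CPM in 3 cells with 76 to 80% and at 20651 CPM in 5 cells with 80 to 84%. The shallow high-mitochondrial cells were poorer in Malat1 than those near the share threshold. These windows pool all libraries, both lines and cells of neither line, which differ in Malat1, and their mix was not matched. The value at 1500 to 1700 UMIs rests on 41 Malat1 UMIs. Depth also limits the genes that fell: 18 of the genes tested in EL4 had no UMI in the summed high-mitochondrial cells and 1451 had fewer than 10, against 40 with fewer than 10 in IVA12.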

How the data were processed

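Droplet libraries of the mixed mouse and human lines were sequenced by the authors, downsampled to a like depth per cell and counted with Cell Ranger 3.0.2 (per the labels; a Cell Ranger 1.2.0 reference is also named) against a combined hg19 and mm10 genome of 60736 genes. The files that the authors deposited hold whole-number UMI counts for every barcode and gene, without normalization or a filter on cells. Libraries were grouped by kit and replicate from the titles. 3′ v2 replicate 1 was not analysed here, and cell mixtures were taken from the study's sample table.

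Cells were selected as given in the results, without a doublet caller and without an upper UMI limit; 1 low-mitochondrial EL4 cell held 691565 UMIs. The 628 mouse cells with a share between 10 and 20% and the 1285 low-share cells under 5000 UMIs entered neither state. UMI counts of the mouse genes other than the 13 mitochondrial genes and the 7 line genes were summed per library, line and state where both states had at least 10 cells. They were tested in edgeR 4.0.16 (R 4.3.3) with TMM scaling, filterByExpr, robust quasi-likelihood fits and Benjamini-Hochberg adjustment over all genes tested. The library was a block, since both states of a pair come from 1 library. Since libraries of 1 mixture share cells, p-values measure the spread between these libraries only. CPM are per 1000000 non-mitochondrial mouse UMIs, before TMM scaling, so they can differ in size from the fitted log2 differences. Percent kept is the mean UMIs per high-mitochondrial cell over that per low-mitochondrial cell. Intervals cover counting error only.

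Alternatives were DESeq2 1.42.0, total-UMI scaling, no filter on low counts, no block, other limits on share, UMIs and line calls, thinning to 500 UMIs, removal of expected free RNA, 3′ v3 libraries only, sums per mixture and leaving out each library. Named genes are the 12 largest rises and falls per line among genes called with at least 50 CPM and 1 direction in every library, up to 4 most abundant members per gene group, the 6 largest line differences per direction, the mitochondrial and line genes and Malat1. Exceptions within groups were named after their values were seen: Rpl39l, Rpl18, H2-T22, Tcf7, Slc2a1, Slc16a1, Slc16a3, Hk2, Eif2ak3, Eif4g1, Ost4, Sec61b, Sec61g, Ndufa13, Ndufc2 and, in EL4, Cox6a1. Some genes that the rule names are not reported here. The cells, gene groups and tests were chosen with earlier results of these data known. The fits were tested on simulated counts: of genes raised by a log2 difference of 2, 92% were called in EL4 and 100% in IVA12 (50 genes each), and of those lowered by 2, 70.2% of 47 and 93.6% of 47. Of genes raised by 1, 44% and 82% were called (50 genes each), and of those lowered by 1, 27.7% of 47 and 56.8% of 44.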

Additional observations from a re-analysis of the deposited data

Results flagged for a closer look

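Several values lay apart from those of the other 4 libraries of their line by Dixon's criterion at the 95% level, which chance meets in about 1 of 20 groups. The criterion was applied to 138 single-gene results, 50 group medians and the equal-depth result of each line. With so many, the number of values found apart can arise by chance. The IVA12 cells of 3′ v2 replicate 2 (15 high-mitochondrial cells) accounted for 6 of the values found apart, as log2 ratios of high- to low-mitochondrial cells scaled to total UMIs. Gm364 stood at 4.80, Napsa at 3.72 and Cd44, a hyaluronan receptor, at 2.5 there. Ybx1 stood at -2.10, Ptma at -2.06 and Slc2a1, with no UMI in the high-mitochondrial cells, at -0.99. In EL4, 3′ v3 replicate 4 stood apart for the noncoding Gm42418 (1.59), the lowest of the 5 libraries, and for the MHC class I group's median (1.89), also the lowest. In IVA12, 5′ v1 replicate 1 stood apart for the medians of cytosolic chaperones (-0.27) and of T cell genes (3.26), the second being a group that IVA12 hardly expresses.

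The tested difference between the lines, EL4 minus IVA12, was past the threshold for 12 named genes. It was -4.01 for Gm4208, -3.62 for Stard10, -3.48 for Nrgn, -3.27 for Tmsb10, -3.0 for Tnnt1 and -2.94 for S100a4. It was 1.54 for Cdkn2a, 1.57 for Ly6a, 1.87 for Idh2, 2.00 for Nacc2, 2.26 for Sfn and 2.27 for Ovol3. Tnnt1, S100a4 and Ly6a were too low in IVA12 to be tested there and passed the filter on low counts only through EL4, so their values are given as a description.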

How the results depend on the processing

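Calls in EL4 (4868) and IVA12 (3615) stayed within 1.5 times of these counts in DESeq2 (4132 and 3106) and most other settings. They were fewer without the replicate block (3099 and 2119) and with cells thinned to 500 UMIs (1354 of 3181 and 441 of 1280 genes tested). With a mitochondrial share of at least 40% they were 2712 and 999, from fewer cells in 3 and 2 libraries. Leaving out 1 library gave 3855 to 4782 and 2787 to 4401. The difference between the lines (460) was 239 with DESeq2, 1436 with total UMIs, 2 without the replicate block, 235 at a share of 40%, 4 with thinned cells, 81 with sums per mixture and 27 to 541 with 1 library left out (68 without 3′ v3 replicate 1, 27 without 3′ v3 replicate 3). The cause was not tested. The kit difference in EL4 (370) was 201 with DESeq2, 197 with free RNA removed and 96 to 505 with 1 library left out, lowest without 3′ v3 replicate 3 (96), 5′ v1 replicate 1 (106) and 5′ v1 replicate 2 (114). In IVA12 (15) it was 79, 6 and 3 to 88, with 5 without 3′ v3 replicate 1, 3 without replicate 3 and 88 without replicate 4. Where 1 library left 1 of the arms with a lone library, that library was assumed to vary like the others.

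Genes detected at equal depth differed by 147.4 in EL4 at 1000 UMIs (69.6 at 500 UMIs). At a share of 40% they differed by 40.7 in EL4 and -22.5 in IVA12, from 3 and 2 libraries, all 3′ v3. The values at 20%, 69.6 and -2.5, are means over 5 libraries and so are not matched to these. At 20%, those EL4 libraries had 402, 387 and 417 genes in high- and 351, 347 and 369 in low-mitochondrial cells. Those IVA12 libraries had 344 and 334 against 361 and 360. Group medians turned in 8 settings in each line, mostly medians near 0. With total UMIs, 6 EL4 medians turned to positive: stress response (ATF4, 0.27), chromatin (0.47), BCL2 family (0.47), p53 targets (0.40), histones (0.38) and snoRNA hosts (0.14). With thinned cells 4 of IVA12 turned, among them oxidative phosphorylation (0.075) and ribosomal proteins (0.07), the second also from 5000 UMIs (0.05) and in 3′ v3 alone (0.05). Directions also turned for the line differences of Tnnt1 (1.68, thinned) and S100a4 (7.63, share of 40%). Over all settings, values of the named genes kept side and direction in 2267 cases, lost the call in 61 and gained it in 2. Low counts in high-mitochondrial EL4 sums limit the falls that could be called.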

Other observations

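Gene groups of stress and cell death were called in both directions in each line. Over all genes, 25% were higher and 23% lower in EL4, and 22.4 and 21.7% in IVA12. In EL4, 4 of 21 ATF4 and integrated stress response genes were higher and 8 lower (edgeR adjusted p under 0.05), 2 of 15 p53 targets were higher and 4 lower, and 3 of 21 BCL2 family and caspase genes were higher and 5 lower. Scaled to total UMIs, which shifts all EL4 genes upward (3897 of 10142 higher and 1016 lower), these counts became 4 higher and 2 lower, 4 and 2, and 5 and 1. The cystine transporter Slc7a11, a surface protein and ATF4 target, rose by 1.84 ± 0.22 in EL4, and the anti-apoptotic membrane protein gene Bcl2 by 1.12 ± 0.21. In IVA12, 3 of 20 ATF4 genes were higher and 11 lower, 2 of 13 p53 targets were higher and 7 lower, and the pro-apoptotic Bax fell by 1.01 (SE 0.22), from 277 to 399 CPM in low- to 132 to 167 CPM in high-mitochondrial cells. With thinned cells the Bax call was lost (log2 -0.39, adjusted p = 0.358). Interferon-stimulated genes were higher in 4 and lower in 3 of 25 in EL4 (12 and 1 with total UMIs), and higher in 4 and lower in 3 of 22 in IVA12. Immediate early genes were higher in 4 and lower in 1 of 19 in EL4 (9 and 0 with total UMIs), and higher in 1 and lower in 3 of 14 in IVA12.

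Counts of nuclear protein genes depended on the scaling in EL4. Over all genes, 25% were higher and 23% lower in EL4, and 22.4 and 21.7% in IVA12. Chromatin and nuclear protein genes were higher in 11 and lower in 20 of 45 in EL4, and higher in 6 and lower in 22 of 45 in IVA12. The higher count in EL4 was near the share over all genes. With total UMIs, under that same shift, they were higher in 23 and lower in 14 in EL4, and higher in 6 and lower in 22 in IVA12. Replication and mitosis genes were lower in 20 of 38 in EL4 and 24 of 39 in IVA12, and with total UMIs in 8 (9 higher) and 27. Npm1, the nucleolar phosphoprotein nucleophosmin, fell by 1.52 (SE 0.31) in EL4 and 0.91 (SE 0.32) in IVA12, and the histone variant gene H2afz by 1.52 and 0.88. In IVA12 the Npm1 call was lost in 4 settings and the H2afz call in 3 (edgeR adjusted p = 0.0512 to 0.0833 and 0.0520 to 0.0676), with thinned cells and line calls from 5 UMIs in both cases. Npm1 was also lost without the replicate block and without 3′ v3 replicate 4, and H2afz without 3′ v3 replicate 1. Mki67, the proliferation marker, went the other way and rose by 1.69 ± 0.24 in EL4 and 1.21 ± 0.24 in IVA12. In IVA12 that call was lost at a mitochondrial share of at least 40% (log2 0.18, adjusted p = 0.844). Clustered histone genes were higher in 4 and lower in 4 of 34 in EL4, and higher in 2 and lower in 9 of 16 in IVA12. The shares over all genes are those given at the start of this paragraph.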
